A study of Mus musculus with 17 samples.

Results

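The voltage-gated sodium channel, voltage-gated calcium channel, HCN channel and ClC chloride channel genes were examined in bulk RNA sequencing of mouse prefrontal cortex. They were chosen by gene symbol alone, as the Scn genes with a number and the letter a or b, the Cacna, Cacnb and Cacng genes with a number (Cacna2d included), the 4 Hcn genes and the Clcn genes, without antisense or pseudogene entries. This gave 53 of the 56953 genes in the table, 48 of which are described. The 53 were 10 sodium channel α and 4 sodium channel β subunits, 10 calcium channel α1, 4 α2δ, 4 β and 8 γ subunits, 4 HCN channels and 9 Clcn genes.

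Sodium channels carry the inward current that starts the action potential, and their β subunits tune the gating and surface level of the pore-forming α subunit. Calcium channels couple depolarisation to transmitter release and to signalling in the cell body. Their α1 subunit forms the pore, the α2δ and β subunits bring it to the membrane, and most γ subunits expressed in brain serve as auxiliary proteins of AMPA-type glutamate receptors. HCN channels open on hyperpolarisation and pass a depolarising current. ClC proteins are either chloride channels of the plasma membrane or chloride-proton exchangers of endosomes and lysosomes.

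The tissue came from 5 WT, 6 hTau and 6 CgA-KO/hTau mice, all labelled B6C3F1/J and 8 months old. hTau mice are heterozygous for the PS19 transgene, in which the Prnp promoter drives human Tau carrying the P301S mutation. That promoter is active in neurons and in other cells. CgA-KO/hTau mice carry the same transgene and, in addition, lack the chromogranin A gene Chga in the whole body from conception, on a line backcrossed to B6C3F1/J. Both of these groups therefore carry human Tau, so the comparison of WT with hTau bears on the transgene and that of CgA-KO/hTau with hTau on the loss of CgA in its presence. A CgA knockout without the transgene was not analysed here, and the sex of single mice is not given in the labels. Ddx3y, a gene of the Y chromosome, split the samples of each genotype. Its centred log2 level was high in replicates 1 to 3, at 2.49 to 3.10, and low in the other replicates, at -3.18 to -3.10. Replicates 4 to 6 of hTau and of CgA-KO/hTau were thus all at the low Ddx3y level. The level of Chga stood at 163 ± 11.9 CPM in the 5 WT samples (SD) and 168 ± 6.68 CPM in the 6 hTau samples (SD), with 0 counts in every CgA-KO/hTau sample, as labelled. CPM are counts per 1000000 of the library size after TMM normalisation. A gene was called at an adjusted p under 0.05 in the quasi-likelihood test of edgeR, where the method of Benjamini and Hochberg was applied to all 23062 tested genes, and every adjusted p comes from that test unless another is named.

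Total counts ranged from 8838334 in WT replicate 4 to 227651681 in hTau replicate 6. hTau replicates 4 to 6 differed from each other by a robust SD of 0.0523 to 0.0607 in the log2 ratio of 3761 abundant genes, and CgA-KO/hTau replicates 1 and 3 by 0.0980, against 0.146 to 0.592 for the other pairs within a genotype. These distances were 1.75 to 2.22 times and 2.57 times the counting noise, against 3.90 to 13.55 times for the other pairs. They do not show whether the samples of a set came from separate mice. The samples were kept separate, and results are also given with each of these sets summed to 1 sample. The labels do not say whether mice came from separate litters, and p-values measure the spread between these samples. The 14 markers of striatal projection neurons summed to 1342 to 3451 CPM in WT, 252 to 427 CPM in hTau and 285 to 1881 CPM in CgA-KO/hTau, where replicates 1 and 3 lay at 1862 and 1881 CPM. The 7 upper-layer cortical markers summed to 807 to 1258 CPM in WT, 1255 to 1503 CPM in hTau and 724 to 1406 CPM in CgA-KO/hTau. Their median log2 fold change between WT and hTau was -0.45, and 1 of the 7 was called as lower in WT. Mitochondrial genes, whose share can rise as RNA quality falls, took 3.53 to 7.94% of counts in WT and 2.56 to 4.59% in hTau. In CgA-KO/hTau they took 15.3, 18.2, 13.8 and 10.9% in replicates 1, 2, 3 and 6, and 3.84 and 6.63% in replicates 4 and 5. In bulk tissue, fewer cells of a type and less RNA per cell cannot be told apart.

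All 48 genes had at least 1 count, and 47 were abundant enough to be tested. Scn4a, the sodium channel of skeletal muscle, was not tested, with 15 counts over all samples and 0 in WT. At 3 fragments of about 3 counts each, 0 counts allow up to 0.0460 CPM in the deepest WT sample and up to 1.03 CPM in the shallowest, for counting error only. To compare genes of different length, levels were also taken as CPM per kilobase of exon. On that scale Scn2b, the sodium channel β2 subunit, stood highest of the 48 genes, with a mean of 84.1 CPM per kilobase over the 17 samples. It was followed by Cacng7 at 78.1, Cacng3 at 56.4 and Cacnb3 at 52.8 CPM per kilobase. The lowest of the tested genes was Cacna1f, a calcium channel of the retina, at 0.0124 CPM per kilobase.

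**Figure D1:**
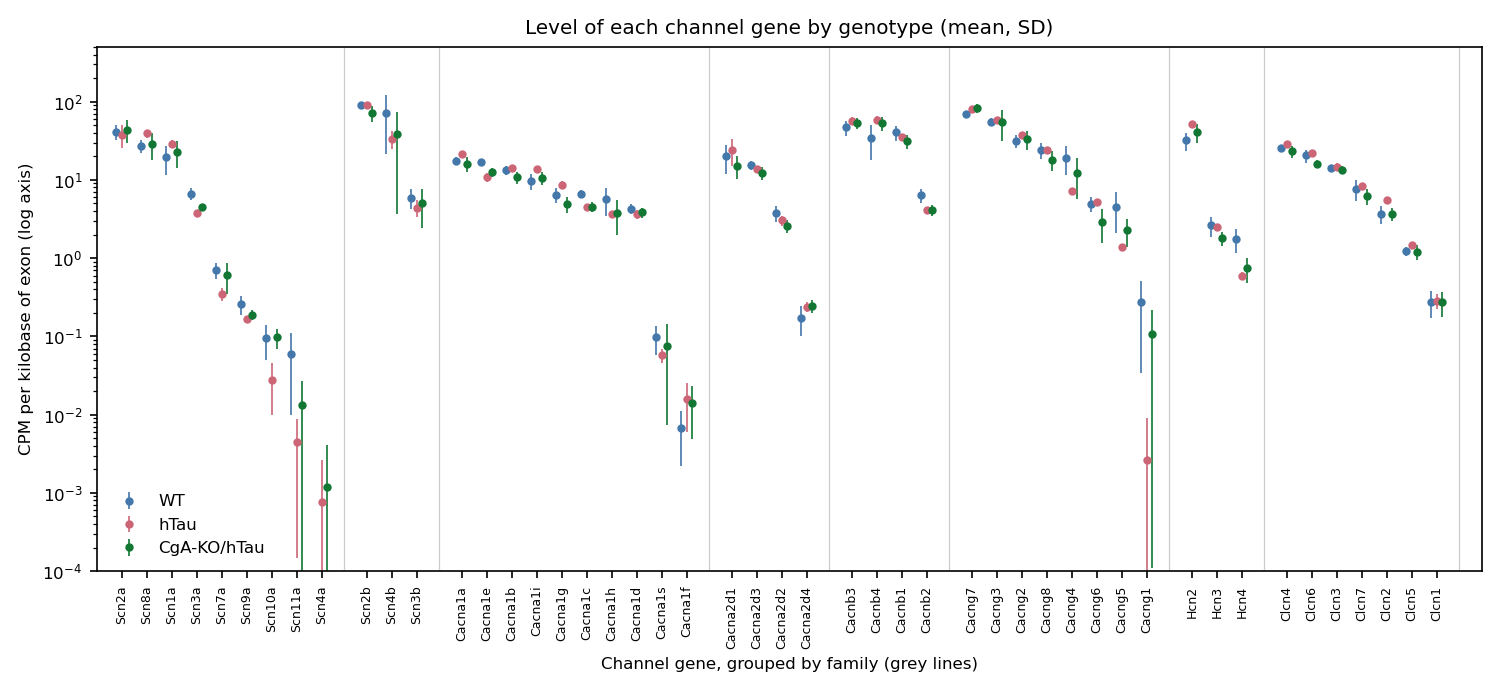
Mean level of each channel gene in CPM per kilobase of exon on a log axis, with SD bars, in WT (n = 5), hTau (n = 6) and CgA-KO/hTau (n = 6), by family. Bars that would pass below 0 end at the axis, and means of 0 are not drawn. Scn2b stands highest, with a mean of 84.1 over all samples.

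The share held by single genes differed between families. Scn2a, a sodium channel of excitatory neurons, held 42.4 ± 6.82% of the α subunits' summed CPM per kilobase in WT (SD, n = 5), 33.4 ± 7.52% in hTau and 43.3 ± 0.777% in CgA-KO/hTau (SD, n = 6). The share ranged from 35 to 50% in WT and from 26.4 to 42.5% in hTau, so these overlapped. In hTau Scn8a, the sodium channel of the axon initial segment, held more than Scn2a, with 35.8 ± 4.09%. Scn2b held 28.1 ± 5.67% of the β subunit level in WT, 21.3 ± 1.66% in hTau and 24.1 ± 4.74% in CgA-KO/hTau. Hcn2, the HCN channel found most widely in brain, held 67.9 ± 10.5% of the HCN level in WT, 78.8 ± 2.91% in hTau and 77.6 ± 10.2% in CgA-KO/hTau, and the ranges overlapped. Hcn4, the slow HCN channel known from the cardiac pacemaker and from thalamus, held 3.81 ± 1.16%, 0.902 ± 0.118% and 1.39 ± 0.324%, with every WT share above every share in the transgenic groups. The P/Q-type pore Cacna1a led the α1 subunits with 22 ± 3.12% in WT, 26.9 ± 0.714% in hTau and 23.9 ± 3.94% in CgA-KO/hTau. The R-type pore Cacna1e held 20.9 ± 2.79%, 13.3 ± 1.52% and 18.9 ± 2.18%. Per kilobase, Cacna2d1, Cacng7 and Clcn4 led their families in each genotype. Of the calcium channel β subunits Cacnb3 led in WT, and in hTau Cacnb4 held 38.1 ± 4.66% against 36.8 ± 3.91% for Cacnb3. Some of these leads rest on dividing by exon length. With length not divided out, in WT Cacna1e held 36.3% against 17.3% for Cacna1a, and Clcn3 36.7% against 33.1% for Clcn4. Cacng2 then held 26.7% against 26.3% for Cacng7, while Cacna2d1 still led with 58.5%. The shares were not tested.

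The sequence before a RefSeq start is shown for 4 genes whose level differed between genotypes and for which RefSeq gives a window. These are Hcn4 and Cacna1e, both called as higher in WT than in hTau, and Hcn2 and Clcn2, both called as lower. Each line gives the 250 bases before the start of the RefSeq transcript in GRCm38.p6, 5′ to 3′ on the strand of the gene. Capitals mark matches to the GC box GGGCGG or its reverse complement. The windows are chr9:58822699-58822948 on the plus strand for Hcn4, chr10:79716384-79716633 on the plus strand for Hcn2, chr1:154725921-154726170 on the minus strand for Cacna1e and chr16:20716637-20716886 on the minus strand for Clcn2. Those of Cacna1e and Clcn2 precede a RefSeq start that lies inside the gene as GENCODE draws it, downstream of the GENCODE start. On the minus strand that GENCODE start is at 154884501 for Cacna1e and at 20717746 for Clcn2. The Cacna1e window thus lies far inside the gene, and whether it acts as a promoter was not tested.
Hcn4: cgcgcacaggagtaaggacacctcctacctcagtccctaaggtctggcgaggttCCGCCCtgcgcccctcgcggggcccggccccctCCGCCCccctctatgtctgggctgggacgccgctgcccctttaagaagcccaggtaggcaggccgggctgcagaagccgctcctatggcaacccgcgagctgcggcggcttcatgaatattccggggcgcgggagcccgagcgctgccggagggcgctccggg
Hcn2: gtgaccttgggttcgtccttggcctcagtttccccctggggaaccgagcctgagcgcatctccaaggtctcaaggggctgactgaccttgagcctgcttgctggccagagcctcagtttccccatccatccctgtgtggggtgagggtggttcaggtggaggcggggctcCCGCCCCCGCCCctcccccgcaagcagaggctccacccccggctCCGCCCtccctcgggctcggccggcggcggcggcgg
Cacna1e: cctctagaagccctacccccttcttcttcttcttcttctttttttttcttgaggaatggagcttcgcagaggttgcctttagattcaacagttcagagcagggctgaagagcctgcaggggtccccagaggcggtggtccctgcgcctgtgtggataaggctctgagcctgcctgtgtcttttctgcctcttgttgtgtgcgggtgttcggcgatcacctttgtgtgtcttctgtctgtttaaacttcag
Clcn2: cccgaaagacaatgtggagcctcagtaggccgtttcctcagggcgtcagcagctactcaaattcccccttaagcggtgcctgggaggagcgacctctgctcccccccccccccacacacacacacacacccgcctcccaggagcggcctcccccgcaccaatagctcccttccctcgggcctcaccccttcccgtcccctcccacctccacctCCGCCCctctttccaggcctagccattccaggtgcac

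The Hcn4 window held 2 GC boxes, that of Hcn2 3, that of Clcn2 1 and that of Cacna1e 0. The G and C content was 71.2% for Hcn4, 70.4% for Hcn2, 66% for Clcn2 and 52% for Cacna1e. RefSeq windows were at hand for 39 of the 48 genes, 54 windows in all, and 40.7% of these held a GC box against 32.7% of all 32851 windows. The cAMP response element TGACGTCA was in 1.85% of them against 1.55%, the TATA box TATAAA in 7.41% against 12.4%, and the E-box CACGTG in 5.56% against 6.02%, on either strand. The genes called as higher and the genes called as lower in WT both included promoters with GC boxes, and a match of letters is not a measured binding site.

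Between WT and hTau, 14 of the 47 genes were called (29.8%), against 5.90% of all genes tested. Of these, 12 were higher in WT (25.5%, against 3.95%), namely 5 sodium channel α subunits, 2 calcium channel pores, Cacnb2, 3 γ subunits and Hcn4. The other 2 were lower in WT (4.26%, against 1.95%), namely Hcn2 and Clcn2. The samples of WT and hTau did not overlap for 14 genes (29.8%, against 9.52%), and of these Cacnb4 and Cacna1a were not called. In 10 of the 14 WT lay above (21.3% of the 47, against 4.39% of all genes) and in 4 below (8.51%, against 5.13%). The median log2 fold change was -9.07e-05 over the 47 genes and -0.01 over all genes, while the median of its size was 0.42 over the 47 and 0.26 over all genes. With a log2 fold change beyond 0.5 and an unadjusted p under 0.01, the threshold in the study's methods, 14 genes passed (against 7.39%). The count was 8 without WT replicate 5, where 632 of all genes were called. With the near-identical samples summed it was 7, where 430 of all genes were called, against 1361 in the main fit. The 33 genes not called had log2 fold changes of -0.94 to 1.08. The 3 comparisons of genotypes share samples with each other and are given side by side.

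**Figure D2:**
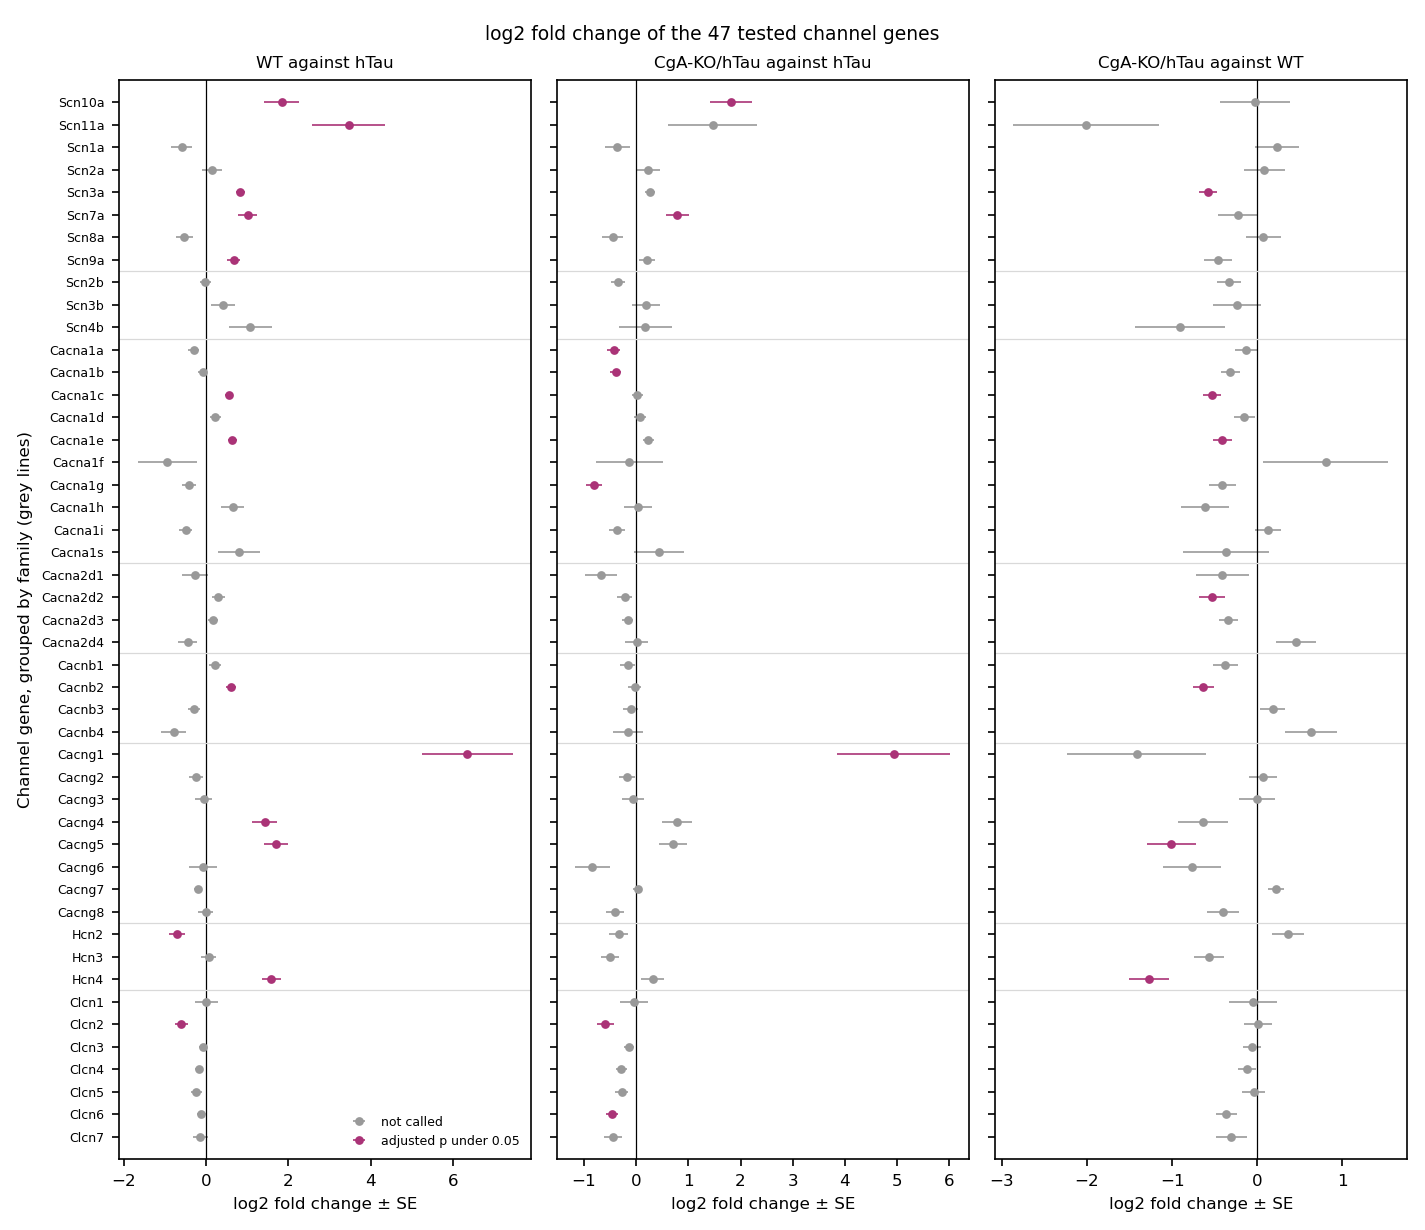
Log2 fold change with SE of the 47 tested channel genes for WT against hTau, CgA-KO/hTau against hTau and CgA-KO/hTau against WT, with called genes in colour; each panel has its own horizontal scale. Calls number 14, 8 and 7, and the 7 in the last panel all lie below 0.

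Scn3a, a sodium channel most abundant in the developing brain, had the smallest p of these genes between WT and hTau. It lies at chr2:65457118-65567627 (GRCm38), in a run of sodium channel genes with Scn2a, Scn1a, Scn9a and Scn7a. Scn3a was 72.5, 70.2, 90, 78.8 and 104 CPM in WT, 43.1 to 50.5 CPM (median 45.9) in hTau and 46.3 to 61.6 CPM (median 57.3) in CgA-KO/hTau. Every WT sample lay above every sample of the other genotypes, and hTau and CgA-KO/hTau overlapped. Scn3a was 1.79-fold higher in WT than in hTau (log2 0.84 ± 0.10, adjusted p = 0.00025; SE here and below). It was 1.49-fold lower in CgA-KO/hTau than in WT (log2 -0.58 ± 0.10, adjusted p = 0.00443), and the difference between CgA-KO/hTau and hTau was 0.26 ± 0.10 (adjusted p = 0.101). The first call held in each of 29 alternatives. The second held in 30 of 31, and was lost without CgA-KO/hTau replicates 1, 2, 3 and 6 together (adjusted p = 0.0771).

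Scn7a, an atypical channel of glia and other cells that sense sodium, lies at chr2:66673425-66784914. Scn7a was 4.8, 3.52, 5.15, 6.73 and 5.98 CPM in WT, 1.99 to 3.47 CPM (median 2.45) in hTau and 3.3 to 8.17 CPM (median 3.67) in CgA-KO/hTau. All WT samples lay above all hTau samples, and CgA-KO/hTau overlapped both, with replicate 2 far above its group. The level was 2.03-fold higher in WT than in hTau (log2 1.02 ± 0.23, adjusted p = 0.0145) and 1.73-fold higher in CgA-KO/hTau than in hTau (log2 0.79 ± 0.22, adjusted p = 0.0341). The first call was lost without WT replicate 5 (adjusted p = 0.0504), and the second without any 1 of hTau replicates 1, 2, 4, 5 and 6 or CgA-KO/hTau replicate 2 (adjusted p 0.0595 to 0.0816). Scn9a, best known from sensory neurons, was 2.6 to 4.89 CPM in WT, 1.99 to 2.21 CPM in hTau and 1.96 to 2.9 CPM in CgA-KO/hTau. It was called as higher in WT than in hTau (log2 0.67 ± 0.16, adjusted p = 0.0185), a call lost without WT replicate 5 (adjusted p = 0.077). With hTau replicates 4 to 6 and CgA-KO/hTau replicates 1 and 3 summed, neither gene was called (adjusted p 0.0881 for Scn7a and 0.0898 for Scn9a between WT and hTau).

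Scn2a, the α subunit with the highest mean over the 17 samples, lies beside Scn3a at chr2:65620771-65767447. Scn2a was 641, 549, 348, 500.4 and 594 CPM in WT, 320.5 to 687 CPM (median 456) in hTau and 372 to 796 CPM (median 551) in CgA-KO/hTau. The 3 genotypes overlapped, with hTau samples at both ends of the range of WT. Its log2 fold change was 0.14 ± 0.24 (adjusted p = 0.789) between WT and hTau and 0.22 ± 0.23 (adjusted p = 0.559) between CgA-KO/hTau and hTau. In hTau Scn8a stood higher than Scn2a, at 39.2 against 37.5 CPM per kilobase. Scn8a and Scn1a, the latter of fast-spiking interneurons, were likewise not called in any comparison.

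Scn10a, at chr9:119608456-119719322, and Scn11a next to it are both known from pain-sensing neurons, and both were scarce. Scn10a was 0.81, 0.876, 0.5, 0.342 and 1.27 CPM in WT, 0.0719 to 0.456 CPM (median 0.177) in hTau and 0.516 to 1.05 CPM (median 0.742) in CgA-KO/hTau. Every CgA-KO/hTau sample lay above every hTau sample, and WT overlapped both. Scn10a was 3.57-fold higher in WT than in hTau (log2 1.84 ± 0.42, adjusted p = 0.0146) and 3.51-fold higher in CgA-KO/hTau than in hTau (log2 1.81 ± 0.40, adjusted p = 0.0125), with a difference of -0.03 ± 0.41 (adjusted p = 0.982) between CgA-KO/hTau and WT. The first call was lost without WT replicate 5 (adjusted p = 0.0663), and both were lost with the near-identical samples summed (adjusted p = 0.101 and 0.114). Scn11a was 0.0664 to 0.753 CPM in WT, 0 to 0.0597 CPM in hTau and 0 to 0.179 CPM in CgA-KO/hTau, with hTau samples at or near 0. It was called between WT and hTau (log2 3.48 ± 0.89, adjusted p = 0.0263), but not without WT replicate 5 or without any 1 of hTau replicates 2, 4 and 6 (adjusted p 0.0504 to 0.15), nor with the near-identical samples summed (adjusted p = 0.108).

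Scn2b lies at chr9:45117782-45130070 and encodes the β2 subunit, which binds the α subunit through a disulphide bond. Scn2b was 425, 390.1, 425, 419 and 448 CPM in WT, 408 to 448 CPM (median 424) in hTau and 195 to 422 CPM (median 344) in CgA-KO/hTau. The genotypes overlapped, with 4 CgA-KO/hTau samples below every WT sample and every hTau sample. These 4, replicates 1, 2, 3 and 6, were also the samples with the highest mitochondrial share. Scn2b was not called, with log2 differences of -0.01 ± 0.14 (adjusted p = 0.98) between WT and hTau, -0.35 ± 0.13 (adjusted p = 0.103) between CgA-KO/hTau and hTau and -0.33 ± 0.14 (adjusted p = 0.167) between CgA-KO/hTau and WT. Without those 4 samples the log2 difference of CgA-KO/hTau was -0.07 (adjusted p = 0.863) from hTau and -0.05 (adjusted p = 0.875) from WT. Those 4 were the lowest of their genotype for Scn2b, so leaving them out had to shrink both differences. The part of the mitochondrial share was not tested. In voom with sample weights Scn2b was called as lower in CgA-KO/hTau, with adjusted p = 0.0111 against hTau and 0.0452 against WT. Scn4b, the β4 subunit of striatal and fast-spiking neurons, was not called either. It spread from 110.1 to 726 CPM in WT and was 104 to 232 CPM in hTau and 57.9 to 425 CPM in CgA-KO/hTau, with a log2 difference of WT from hTau of 1.08 ± 0.53 (adjusted p = 0.253).

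**Figure D3:**
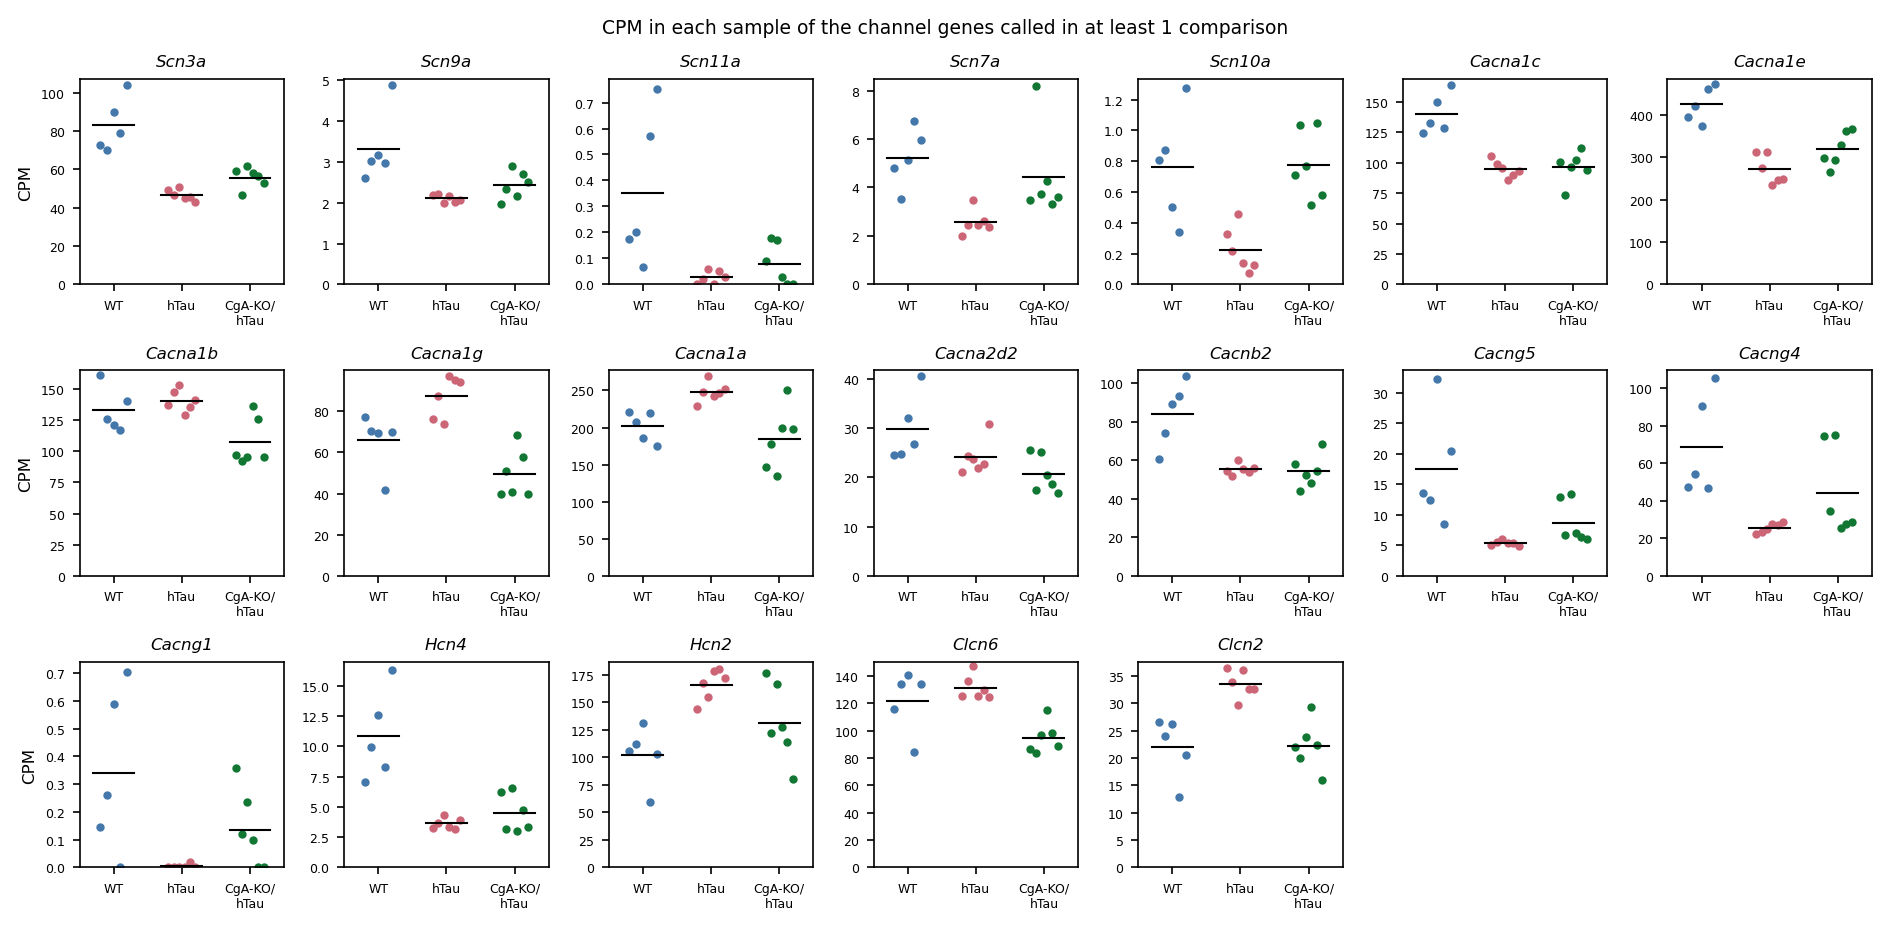
Level in CPM of the 19 channel genes called in at least 1 comparison, with 1 point for each sample of WT (n = 5), hTau (n = 6) and CgA-KO/hTau (n = 6), a black line at the mean and each vertical axis starting at 0. All 6 hTau samples of Clcn2 lie above the other genotypes, and all 5 WT samples of Scn3a and Hcn4 lie above theirs.

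Of the 10 calcium channel pores, 2 were called as higher in WT than in hTau, and 3 others as lower in CgA-KO/hTau than in hTau. Cacna1e, the R-type pore of dendrites and presynaptic terminals, lies at chr1:154390731-154884501. Cacna1e was 395, 419.8, 374, 462 and 472 CPM in WT, 234 to 312 CPM (median 262) in hTau and 264 to 366 CPM (median 313) in CgA-KO/hTau. WT lay above both transgenic genotypes in every sample. The level was 1.56-fold higher in WT than in hTau (log2 0.65 ± 0.11, adjusted p = 0.00205), a call that held in each of 29 alternatives. It was 1.33-fold lower in CgA-KO/hTau than in WT (log2 -0.41 ± 0.11, adjusted p = 0.0328), and that call was lost without any 1 of WT replicates 2 and 5 or CgA-KO/hTau replicates 1, 2 and 3 (adjusted p 0.0575 to 0.102). The difference between CgA-KO/hTau and hTau was 0.23 ± 0.11 (adjusted p = 0.161).

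Cacna1c, the L-type pore that links calcium entry to gene expression in neurons, lies at chr6:118587240-119196418. Cacna1c was 125, 133, 149.8, 128 and 164 CPM in WT, 85.8 to 106 CPM (median 94.7) in hTau and 73.5 to 113 CPM (median 98.7) in CgA-KO/hTau. Each WT sample again lay above each sample of the transgenic genotypes, which overlapped each other. The level was 1.47-fold higher in WT than in hTau (log2 0.56 ± 0.10, adjusted p = 0.0037) and 1.45-fold lower in CgA-KO/hTau than in WT (log2 -0.54 ± 0.10, adjusted p = 0.00667), with a difference of 0.02 ± 0.10 (adjusted p = 0.905) between CgA-KO/hTau and hTau. The second call was lost in a fit of those 2 genotypes alone (adjusted p = 0.051) and without CgA-KO/hTau replicates 1, 2, 3 and 6 (adjusted p = 0.15).

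Cacna1g, the T-type pore of rebound bursting, lies at chr11:94408391-94474198. Cacna1g was 77.3, 70.4, 69.5, 41.9 and 70.2 CPM in WT, 73.9 to 97 CPM (median 90.8) in hTau and 39.8 to 68.6 CPM (median 45.9) in CgA-KO/hTau. Every CgA-KO/hTau sample lay below every hTau sample, and WT overlapped both, with replicate 4 far below the other WT samples. The level was 1.76-fold lower in CgA-KO/hTau than in hTau (log2 -0.81 ± 0.16, adjusted p = 0.00611), a call that was lost in 2 of 31 alternatives, the summing of near-identical samples (adjusted p = 0.0954) and the leaving out of CgA-KO/hTau replicates 1, 2, 3 and 6, at -0.48 (adjusted p = 0.507). The difference of WT from hTau was -0.40 ± 0.16 (adjusted p = 0.162).

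Cacna1a and Cacna1b, the P/Q-type and N-type pores that trigger transmitter release, lie at chr8:84388440-84640246 and chr2:24603887-24763152. Cacna1a was 221, 207, 186, 219 and 175 CPM in WT, 229 to 270.2 CPM (median 247) in hTau and 134 to 251 CPM (median 188) in CgA-KO/hTau. Cacna1b was 161, 125, 121, 117 and 141 CPM in WT, 129 to 153 CPM (median 139) in hTau and 92.4 to 136 CPM (median 96.5) in CgA-KO/hTau. For both genes CgA-KO/hTau overlapped hTau, and for Cacna1a all WT samples lay below all hTau samples. Cacna1a was 1.34-fold lower in CgA-KO/hTau than in hTau (log2 -0.43 ± 0.12, adjusted p = 0.0378) and Cacna1b 1.31-fold lower (log2 -0.39 ± 0.11, adjusted p = 0.033). The call for Cacna1a was lost without any 1 of hTau replicates 2 to 6 or CgA-KO/hTau replicates 1, 2 and 3 (adjusted p 0.0614 to 0.0857). That for Cacna1b was lost without any 1 of hTau replicates 1, 2, 3, 5 and 6 or CgA-KO/hTau replicates 1, 2, 3 and 6 (adjusted p 0.0505 to 0.0816). Neither gene was called between WT and hTau, at -0.30 ± 0.13 (adjusted p = 0.195) and -0.08 ± 0.12 (adjusted p = 0.75).

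Among the subunits that bring the pore to the membrane, Cacna2d1, a target of gabapentin, was the most abundant α2δ subunit per kilobase. Cacna2d1 was 182, 135, 333, 223 and 374 CPM in WT, 141 to 393 CPM (median 362) in hTau and 98.8 to 281 CPM (median 182) in CgA-KO/hTau. It varied widely within each genotype and was not called in any comparison (adjusted p = 0.681, 0.15 and 0.485 for WT against hTau, CgA-KO/hTau against hTau and CgA-KO/hTau against WT). Cacna2d2, the α2δ subunit known from cerebellum, lies at chr9:107399612-107529343. Cacna2d2 was 24.6, 24.8, 32.1, 26.8 and 40.5 CPM in WT, 21 to 30.9 CPM (median 23.2) in hTau and 16.9 to 25.6 CPM (median 19.5) in CgA-KO/hTau. The genotypes overlapped, and Cacna2d2 was 1.44-fold lower in CgA-KO/hTau than in WT (log2 -0.53 ± 0.15, adjusted p = 0.0465). That call was lost without any 1 of WT replicates 3 and 5, hTau replicates 1 to 5 or CgA-KO/hTau replicates 2, 4, 5 and 6 (adjusted p 0.054 to 0.165).

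Cacnb2, a β subunit found in heart and brain, lies at chr2:14603088-14987908. Cacnb2 was 60.8, 73.9, 89.1, 93.4 and 104 CPM in WT, 51.9 to 59.9 CPM (median 54.8) in hTau and 44.2 to 68.4 CPM (median 53.2) in CgA-KO/hTau. Every WT sample lay above every hTau sample, and the lowest WT sample overlapped the highest of CgA-KO/hTau. The level was 1.52-fold higher in WT than in hTau (log2 0.61 ± 0.13, adjusted p = 0.00779) and 1.55-fold lower in CgA-KO/hTau than in WT (log2 -0.63 ± 0.13, adjusted p = 0.00755), with a difference of -0.03 ± 0.12 (adjusted p = 0.909) between CgA-KO/hTau and hTau. The first call was lost with the near-identical samples summed (adjusted p = 0.0613), and the second in a fit of those 2 genotypes alone (adjusted p = 0.0665). Cacnb3, the β subunit with the highest mean per kilobase over the 17 samples, overlapped between the genotypes, and in hTau Cacnb4 stood higher, at 59.1 against 57.2 CPM per kilobase. Cacnb3 was 219, 223, 206, 122 and 171 CPM in WT, 192 to 258 CPM (median 230.4) in hTau and 154 to 248 CPM (median 218) in CgA-KO/hTau. It was not called, with adjusted p = 0.3 between WT and hTau and 0.675 between CgA-KO/hTau and hTau.

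Of the 8 γ subunits, Cacng1, Cacng4 and Cacng5 were called as higher in WT than in hTau, and these 3 genes lie next to each other on chromosome 11, at chr11:107703218-107716522, chr11:107732357-107794557 and chr11:107874605-107915055. Cacng4 encodes γ-4, an auxiliary protein of AMPA receptors. Cacng4 was 47.1, 54.2, 90.5, 46.9 and 105 CPM in WT, 22.3 to 28.4 CPM (median 26.2) in hTau and 25.6 to 74.9 CPM (median 31.7) in CgA-KO/hTau. WT and hTau did not overlap, and CgA-KO/hTau replicates 1 and 3, at 74.3 and 74.9 CPM, reached the WT range while the other 4 did not. Cacng4 was 2.68-fold higher in WT than in hTau (log2 1.42 ± 0.30, adjusted p = 0.00778). It differed between CgA-KO/hTau and hTau by 0.79 ± 0.28 (adjusted p = 0.083), and by 0.17 (adjusted p = 0.645) without CgA-KO/hTau replicates 1 and 3. Between CgA-KO/hTau and WT it differed by -0.64 ± 0.30 (adjusted p = 0.215), and by -1.24 (adjusted p = 0.00417) without them. As they were the highest of their genotype for Cacng4, leaving them out had to move both differences this way.

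Cacng5 encodes γ-5, likewise an AMPA receptor auxiliary protein. Cacng5 was 13.5, 12.4, 32.3, 8.55 and 20.4 CPM in WT, 4.96 to 6.05 CPM (median 5.39) in hTau and 5.98 to 13.4 CPM (median 6.86) in CgA-KO/hTau. WT lay above hTau in every sample, and CgA-KO/hTau replicates 1 and 3 again lay highest in their genotype. Cacng5 was 3.27-fold higher in WT than in hTau (log2 1.71 ± 0.29, adjusted p = 0.00187) and 2.01-fold lower in CgA-KO/hTau than in WT (log2 -1.01 ± 0.28, adjusted p = 0.0412). The second call was lost without any 1 of 12 samples, namely WT replicates 3 and 5, every hTau replicate and CgA-KO/hTau replicates 2, 4, 5 and 6 (adjusted p 0.0512 to 0.14). Without CgA-KO/hTau replicates 1 and 3 together, the highest of their genotype, the difference from WT was bound to grow and was -1.43 (adjusted p = 0.00761).

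Cacng1, the γ subunit of the skeletal muscle calcium channel, was at the limit of detection. Cacng1 was 0.145, 0.261, 0.587, 0 and 0.705 CPM in WT, 0 to 0.0196 CPM (median 0) in hTau and 0 to 0.357 CPM (median 0.109) in CgA-KO/hTau. All 3 of the hTau counts came from replicate 5, WT replicate 4 was at 0 in the shallowest sample, and the genotypes overlapped at 0. At about 3 counts to a fragment this was 70 fragments in WT against 1 in hTau, a ratio of pooled levels of 151 with a 95% interval of 26.2 to 6045, and 27 fragments in CgA-KO/hTau, a ratio to hTau of 48.5 with an interval of 8.00 to 1987. The intervals cover counting error only. The gene was called in both comparisons (adjusted p = 0.00227 and 0.012). The second call was lost without CgA-KO/hTau replicates 1 and 3, the highest of their genotype (adjusted p = 0.0852). It was also lost with the near-identical samples summed (adjusted p = 0.0819). The 8 skeletal muscle markers summed to 4.11 to 10.2 CPM in WT, 11.9 to 16 CPM in hTau and 6.56 to 11.5 CPM in CgA-KO/hTau. None of them was at 0 throughout a genotype. Of the 6 that were tested, 1 was called as lower in WT than in hTau. Their part in the level of Cacng1 was not tested. Cacng7, the γ subunit most abundant per kilobase, was 185, 178, 166, 171 and 159 CPM in WT, 177 to 216 CPM (median 198) in hTau and 164 to 228 CPM (median 209.9) in CgA-KO/hTau, and was not called (log2 difference of WT from hTau -0.20 ± 0.09 (adjusted p = 0.246)).

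The HCN channels moved in both directions between WT and hTau. Hcn4, whose promoter is printed above, lies at chr9:58823412-58863175. Hcn4 was 7.06, 9.96, 12.6, 8.33 and 16.3 CPM in WT, 3.17 to 4.31 CPM (median 3.53) in hTau and 3.03 to 6.55 CPM (median 4.04) in CgA-KO/hTau. Every WT sample lay above every sample of both other genotypes. The level was 3.01-fold higher in WT than in hTau (log2 1.59 ± 0.23, adjusted p = 0.000789) and 2.42-fold lower in CgA-KO/hTau than in WT (log2 -1.27 ± 0.23, adjusted p = 0.00504), and the second call held in each of 31 alternatives. CgA-KO/hTau and hTau overlapped and differed by 0.32 ± 0.22 (adjusted p = 0.37).

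Hcn2, at chr10:79716634-79736108, moved the other way between WT and hTau. Hcn2 was 106, 112, 131, 59.3 and 103 CPM in WT, 144 to 180.5 CPM (median 169.6) in hTau and 80.6 to 177 CPM (median 125) in CgA-KO/hTau. Every WT sample lay below every hTau sample, and CgA-KO/hTau overlapped both, with replicates 1 and 3 highest. The level was 1.62-fold lower in WT than in hTau (log2 -0.70 ± 0.19, adjusted p = 0.0372), and CgA-KO/hTau differed from hTau by -0.34 ± 0.18 (adjusted p = 0.23). The call was lost without any 1 of WT replicates 1, 2, 4 and 5 or hTau replicates 2 to 6 (adjusted p 0.0522 to 0.0907) and with the near-identical samples summed (adjusted p = 0.136). Hcn3 was not called in any comparison.

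Of the 7 Clcn genes tested, Clcn2 was called in 2 comparisons and Clcn6 in 1. Clcn2 is a chloride channel of the plasma membrane of neurons and glia and lies at chr16:20702964-20717746. Clcn2 was 26.6, 24.1, 26.3, 12.8 and 20.5 CPM in WT, 29.7 to 36.4 CPM (median 33.3) in hTau and 15.9 to 29.3 CPM (median 22.2) in CgA-KO/hTau. Each hTau sample lay above each sample of WT and of CgA-KO/hTau. Clcn2 was 1.51-fold lower in WT than in hTau (log2 -0.60 ± 0.17, adjusted p = 0.041) and 1.51-fold lower in CgA-KO/hTau than in hTau (log2 -0.59 ± 0.16, adjusted p = 0.0263), while CgA-KO/hTau and WT differed by 0.00 ± 0.16 (adjusted p = 0.993). The first call was lost without any 1 of WT replicates 2, 4 and 5 or hTau replicates 1, 2, 4, 5 and 6 (adjusted p 0.057 to 0.113), the second without any 1 of hTau replicates 1, 2 and 4 or CgA-KO/hTau replicates 1 and 2 (adjusted p 0.0501 to 0.065).

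The 8 markers of parvalbumin interneurons, fast-spiking cells of the cortex, summed to 414 to 574 CPM in WT, 635 to 840 CPM in hTau and 381 to 624 CPM in CgA-KO/hTau, so hTau lay highest for them as for Clcn2. Of them, 4 had a lower and 1 a higher level in WT than in hTau, and 5 were lower in CgA-KO/hTau than in hTau, with none at 0 throughout a genotype. Their part in the levels of Clcn2 and Hcn2 was not tested.

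Clcn6, a chloride-proton exchanger of late endosomes in neurons, lies at chr4:148004259-148038821. Clcn6 was 116, 134, 141, 84.3 and 134 CPM in WT, 124 to 147 CPM (median 128) in hTau and 83.9 to 115 CPM (median 92.8) in CgA-KO/hTau. Every CgA-KO/hTau sample lay below every hTau sample, and WT overlapped both. Clcn6 was 1.39-fold lower in CgA-KO/hTau than in hTau (log2 -0.47 ± 0.11, adjusted p = 0.0179), a call lost without CgA-KO/hTau replicates 1 and 3 (adjusted p = 0.0688) and with the near-identical samples summed (adjusted p = 0.117). Clcn4, an endosomal exchanger and the most abundant Clcn gene per kilobase, was not called. Clcn4 was 237, 226, 214, 207 and 201 CPM in WT, 232 to 266 CPM (median 241) in hTau and 166 to 255 CPM (median 195) in CgA-KO/hTau. Its log2 differences were -0.17 ± 0.11 (adjusted p = 0.407) between WT and hTau and -0.29 ± 0.10 (adjusted p = 0.0806) between CgA-KO/hTau and hTau.

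Between CgA-KO/hTau and hTau, 8 of the 47 genes were called (17%, against 9.72% of all genes). Of these, Scn7a, Scn10a and Cacng1 were higher in CgA-KO/hTau (6.38%, against 5.50%), and Cacna1a, Cacna1b, Cacna1g, Clcn2 and Clcn6 were lower (10.6%, against 4.22%). Samples did not overlap for 5 genes (10.6%, against 6.63%). CgA-KO/hTau lay above in 1 (2.13% of the 47, against 2.84%) and below in 4 (8.51%, against 3.79%). The threshold in the study's methods was passed by 6 genes (12.8%, against 9.73%). The median log2 fold change was -0.13 over the 47 genes and 0.03 over all genes. None of the 47 was called once the near-identical samples were summed, where edgeR gave a lowest adjusted p of 0.0819 and 11 genes had an unadjusted p under 0.05, whereas DESeq2 on all samples called 11. Without CgA-KO/hTau replicates 1 and 3 the count was 2, Scn10a and Cacna1g, and 718 of all genes were called, against 2242 in the main fit. The count was 4 without hTau replicate 2 (1066 of all genes) and 13 without CgA-KO/hTau replicate 4 (3822 of all genes). It was 5 without any 1 of hTau replicates 1, 4, 5 and 6 or CgA-KO/hTau replicates 1 and 2. Without CgA-KO/hTau replicates 1, 2, 3 and 6, the samples with the highest mitochondrial share, edgeR called 0 of the 47 and 136 of all genes. The lowest adjusted p of the 47 was 0.32, and 8 had an unadjusted p under 0.05. This fit keeps 2 samples of that genotype, both at the low Ddx3y level, while hTau holds samples at both levels. Scn10a was then 1.8 (adjusted p = 0.32), Clcn6 -0.31 (adjusted p = 0.661), Clcn2 -0.38 (adjusted p = 0.694) and Cacna1a -0.15 (adjusted p = 0.78).

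Between CgA-KO/hTau and WT, 7 genes were called (14.9%, against 6.46%), all of them lower in CgA-KO/hTau (against 2.89%), and 0 were higher (against 3.56%). They were Scn3a, Cacna1c, Cacna1e, Cacna2d2, Cacnb2, Cacng5 and Hcn4. Samples did not overlap for 4 genes (8.51%, against 3.60%), with CgA-KO/hTau below in all 4 (against 1.54%) and above in 0 (against 2.06%), and 7 genes passed the threshold in the study's methods (14.9%, against 7.75%). The median log2 fold change was -0.32 over the 47 genes and 0.01 over all genes, and 35 of the 47 lay below 0. Without CgA-KO/hTau replicates 1 and 3 the count was 10, without WT replicate 4 it was 12, and without WT replicate 5 or CgA-KO/hTau replicate 2 it was 4. Over all genes these fits called 1234, 2099, 627 and 847, in that order, against 1489 in the main fit. A fit of CgA-KO/hTau and WT alone called 2, Scn3a and Hcn4, and 266 of all genes. Without CgA-KO/hTau replicates 1, 2, 3 and 6 the count was 3, namely Hcn4 at -1.50 (adjusted p = 0.0235), Cacnb2 at -0.71 (adjusted p = 0.0435) and Cacng4 at -1.38 (adjusted p = 0.0329). Over the 3 comparisons 19 of the 47 tested genes were called at least once and 28 were not.

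The striatal projection neuron list holds none of the channel genes. Of its 14 genes, 12 were higher in WT than in hTau (median log2 fold change 3.19), 8 were higher in CgA-KO/hTau than in hTau (2.13) and 2 were lower in CgA-KO/hTau than in WT (-1.07), and Isl1, a defining marker, was at 0 in every hTau sample. Of the 8 deep-layer markers tested, 4 were higher in WT than in hTau, and of the 7 choroid plexus and ependymal markers 4 were. Of the 6 somatostatin interneuron markers, 3 were higher in WT than in hTau and 4 were lower in CgA-KO/hTau than in WT, where 1 deep-layer and 3 choroid plexus and ependymal markers were lower. The somatostatin markers summed to 305 to 545 CPM in WT, 258 to 312 CPM in hTau and 197 to 351 CPM in CgA-KO/hTau, with none at 0 throughout a genotype. The part of the deep-layer, choroid plexus and ependymal, and somatostatin markers in the channel levels was not tested. A fit with a score of the striatal markers is given below. The CgA-KO/hTau samples with the highest striatal sum, replicates 1 and 3, were also the highest of their genotype for Scn4b, Cacng4, Cacng5, Hcn4 and Scn3a. They were the highest for Hcn2 too, which was lower in WT than in hTau. Cacna1e, higher in WT than in hTau, was 297 and 294 CPM in replicates 1 and 3, against 329 to 366 CPM in replicates 4 to 6. Scn7a, also higher in WT, was 3.48 and 3.73 CPM there, against 8.17 CPM in replicate 2.

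**Figure D4:**
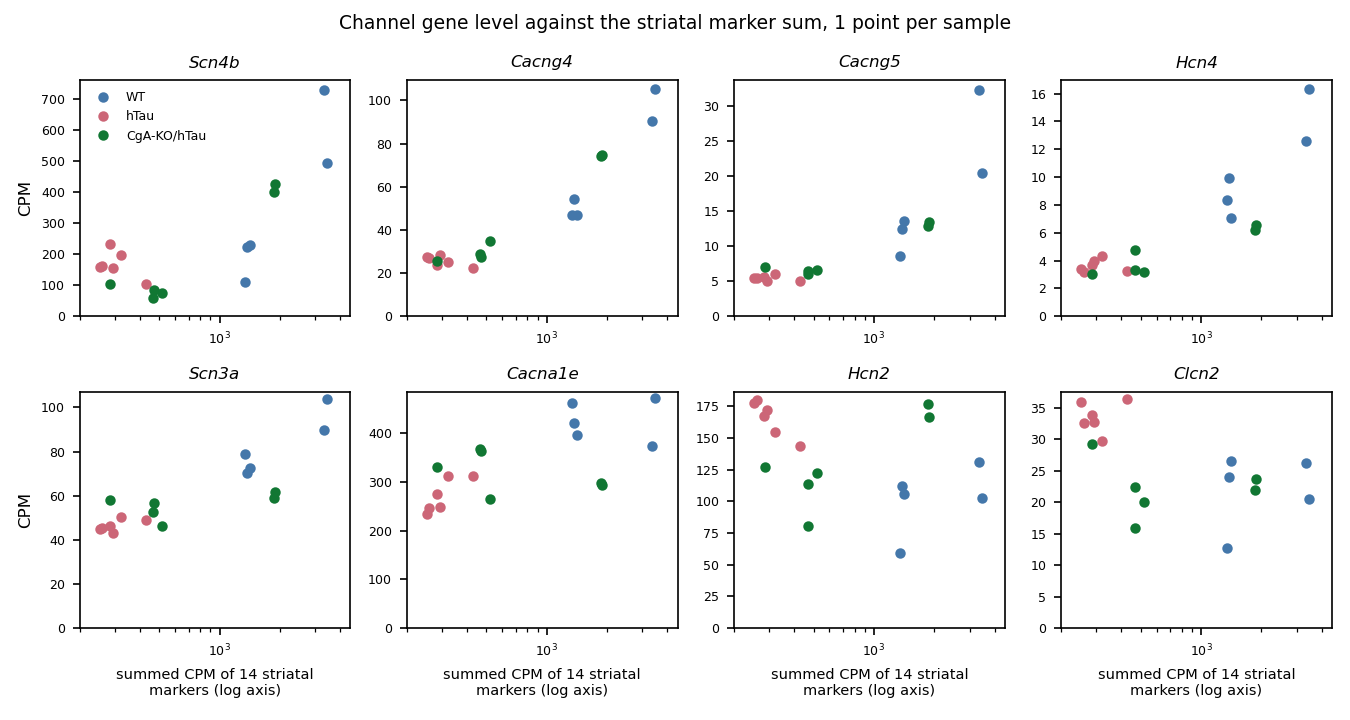
Level in CPM of 8 channel genes in each of the 17 samples against the summed CPM of 14 striatal projection neuron markers on a log axis, by genotype. WT samples lie at sums of 1342 to 3451, hTau samples at 252 to 427, and CgA-KO/hTau replicates 1 and 3, at 1862 and 1881, lie apart from the other 4 of their genotype.

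With the striatal marker score as a covariate, 7 of the 47 genes were called between WT and hTau, 4 higher and 3 lower. In that fit 3586 of all 23062 tested genes were called, against 1361 without the score. Of the 14 called without it, Scn3a (0.58, adjusted p = 0.0213), Cacna1e (0.84, adjusted p = 0.00684) and Hcn2 (-1.42, adjusted p = 0.00473) were called again. Of the other 11, the sign turned for Cacng4 (-0.23, adjusted p = 0.402). Hcn4 was 0.57, adjusted p = 0.173, Cacng5 0.30, adjusted p = 0.532 and Cacna1c 0.47, adjusted p = 0.0725. The other 7 calls, of Scn7a, Scn9a, Scn10a, Scn11a, Cacnb2, Cacng1 and Clcn2, were also lost, at adjusted p of 0.0985 to 0.61. For some of these the SE rose and the fold stayed near its size. Clcn2 was -0.60 ± 0.17 without the score and -0.69 ± 0.28 with it, Cacnb2 0.61 ± 0.13 without the score and 0.52 ± 0.22 with it and Scn7a 1.02 ± 0.23 without the score and 1.07 ± 0.42 with it. The calls gained were Cacng2 and Cacng3 as higher in WT, and Scn4b and Cacna1i as lower. For 3 of these the sign turned with the score, from -0.24 ± 0.17 (adjusted p = 0.436) to 0.57, adjusted p = 0.0122 for Cacng2, from -0.05 ± 0.21 (adjusted p = 0.927) to 0.91, adjusted p = 0.0163 for Cacng3 and from 1.08 ± 0.53 (adjusted p = 0.253) to -1.77, adjusted p = 0.0138 for Scn4b. In all, the sign turned for 17 of the 47 genes. The marker sums of WT and hTau do not overlap, so striatal content and genotype cannot be told apart in this comparison. In the same fit Hcn4 remained called between CgA-KO/hTau and WT (-0.70, adjusted p = 0.0267), as did Scn3a, Cacna1c, Cacna1e and Cacnb2, although Cacnb2 was not called once WT replicate 4 was also left out, at -0.51 (adjusted p = 0.0573). Cacna1g (-0.70, adjusted p = 0.0325), Scn10a and Clcn6 remained called between CgA-KO/hTau and hTau.

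**Figure D5:**
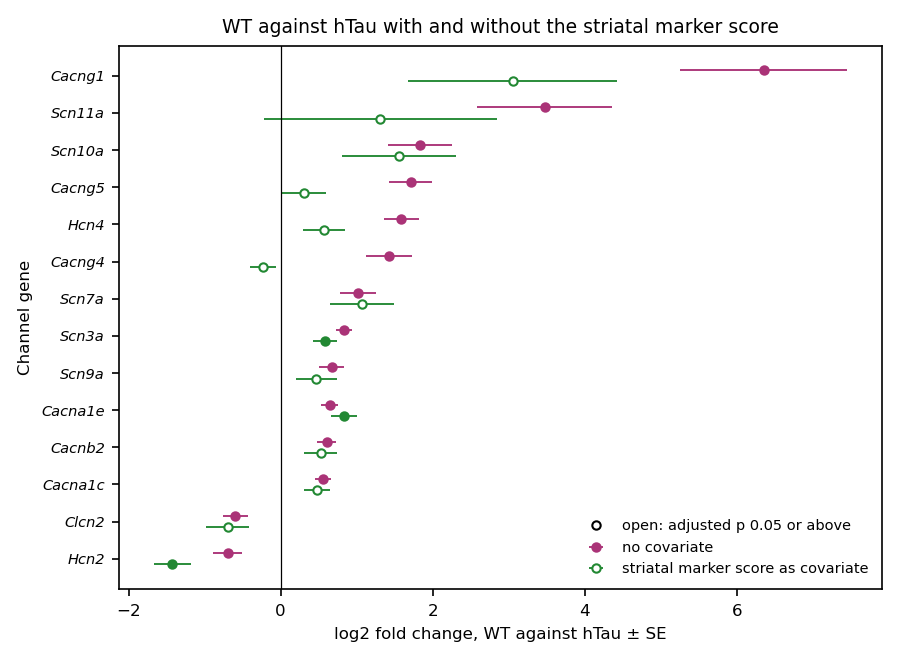
Log2 fold change of WT against hTau with SE for the 14 called genes, without and with the striatal marker score as a covariate; open points have an adjusted p of 0.05 or more. Scn3a, Cacna1e and Hcn2 stay filled, and Cacng4 passes to the other side of 0.

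Genes related to these channels were taken from 7 lists. Some lists hold partner proteins of the channels. Others hold chloride channels or transporters outside the Clcn family, other AMPA receptor auxiliary proteins or the sodium leak channel complex. Across all lists 78 genes were tested. Of these, 13 had a higher and 3 a lower level in WT than in hTau (20.5% called, against 5.90% of all genes). In CgA-KO/hTau 4 were higher and 6 lower than in hTau (12.8%, against 9.72%), a share near that of all genes. Against WT, 3 were higher and 8 lower in CgA-KO/hTau (14.1%, against 6.46%). The median log2 fold change of the 78 was -0.02, 0.02 and -0.14 in the same order. By list, of 22 chloride channels and transporters outside the Clcn family, 5 were higher and 1 was lower in WT than in hTau. Of 11 AMPA receptor auxiliary proteins other than the γ subunits, 4 were higher in WT than in hTau and 3 were lower in CgA-KO/hTau than in WT. Of 18 calcium channel partners, 3 had a higher and 2 a lower level in WT than in hTau. Of 12 sodium channel partners, 1 was higher in WT than in hTau, and of 5 HCN partners, 1 was higher in CgA-KO/hTau than in WT, with 0 called between WT and hTau. None of the 5 ClC partners or 5 members of the sodium leak channel complex was called in any comparison.

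The listed genes with the smallest p included Ano2, a calcium-activated chloride channel outside the Clcn family. It was higher in WT than in hTau (10.6 ± 3.98 against 0.42 ± 0.349 CPM, log2 4.75 ± 0.59, adjusted p = 0.00025) and in CgA-KO/hTau than in hTau (2.81 ± 2.39 against 0.42 ± 0.349 CPM, log2 2.84 ± 0.54, adjusted p = 0.00585). Shisa6, an auxiliary protein of AMPA receptors, was higher in WT than in hTau (48.9 ± 18.9 against 18 ± 1.14 CPM, log2 1.44 ± 0.18, adjusted p = 0.00025) and lower in CgA-KO/hTau than in WT (23.5 ± 2.23 against 48.9 ± 18.9 CPM, log2 -1.06 ± 0.18, adjusted p = 0.00295). Stac2, which binds L-type calcium channels, was lower in WT than in hTau (75.8 ± 21.8 against 183 ± 28.9 CPM, log2 -1.27 ± 0.19, adjusted p = 0.0008) and lower in CgA-KO/hTau than in hTau (109 ± 17.2 against 183 ± 28.9 CPM, log2 -0.75 ± 0.18, adjusted p = 0.016). Slc12a5, the neuronal potassium-chloride cotransporter KCC2, was lower in CgA-KO/hTau than in hTau (303 ± 73.9 against 444 ± 20.1 CPM, log2 -0.55 ± 0.14, adjusted p = 0.0217). Pex5l, the HCN trafficking protein TRIP8b, was higher in CgA-KO/hTau than in WT (184 ± 41.2 against 110.4 ± 26.5 CPM, log2 0.74 ± 0.17, adjusted p = 0.0182), and so was Rims1, a scaffold of presynaptic calcium channels (369 ± 96.2 against 221 ± 34.1 CPM, log2 0.74 ± 0.16, adjusted p = 0.012). Clic6, which choroid plexus expresses strongly, was higher in WT than in hTau (9.18 ± 8.73 against 0.518 ± 0.137 CPM, log2 4.16 ± 0.59, adjusted p = 0.000549), and the choroid plexus and ependymal markers summed to 17.6 to 1083 CPM in WT against 7.10 to 9.73 CPM in hTau. Their part in the level of Clic6 was not tested.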

How the data were processed

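Counts per gene were deposited as 1 table of 56953 genes by 17 samples. Per the labels and the study's methods, the authors sequenced polyA RNA of prefrontal cortex as read pairs and used FastQC, Trimmomatic 0.39, STAR 2.7.10b on mm10 and StringTie 1.3.6, whose prepDE script turns coverage into counts. The submitters' notes also list DESeq2 1.42.0. Annotation release and strand setting are not given in the sources used here. Total counts were 8838334 to 227651681 per sample, and low counts peaked at 3 and 6, so about 3 counts were read as 1 fragment and a count of 0 as up to 9 counts. Because counts exceed fragments, intervals and limits cover counting error only.

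Samples were grouped by the genotype in the labels. All 17 samples were fitted together in edgeR 4.0.16 (R 4.3.3) with TMM, filterByExpr and its quasi-likelihood test, and p-values were adjusted by Benjamini-Hochberg over 23062 genes. Alternatives used DESeq2 1.42.0, limma 3.58.1 voom with sample weights, other filters, covariates and samples left out. The fit was checked on simulated data. Plots were drawn with matplotlib 3.10.9, and tables were made with pandas 2.3.3, scipy 1.17.1 and numpy 2.4.6 under Python 3.11.15. Exon lengths and gene positions came from GENCODE M21 (GRCm38), which matched the 53 channel genes of the rule and 52029 genes of the table. Of the 53 genes 48 are reported and 5 are not reported here, though all entered the fit and the sums of each family. All columns of the table were used (0 were not), and no row lacked a symbol.

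Full values are given for genes called in any comparison, up to the 12 with the smallest p in each, and for the most abundant reported gene per kilobase of each of the 8 families. Partner genes are named up to 4 per comparison. Scn1a, Scn4b, Scn8a, Cacna1i, Cacnb4, Cacng2, Cacng3 and Hcn3 were named after their values were seen. The genes and lists were chosen with earlier results of these data known. The alternatives that left out CgA-KO/hTau replicates 1 and 3 or 1, 2, 3 and 6, or WT replicate 4 together with the striatal score, were chosen after seeing the data.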

Additional observations from a re-analysis of the deposited data

Results flagged for a closer look

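Single samples stood apart from the rest of their genotype in 6 of 75 groups of values examined, by the gap to the nearest sample as a share of the group's range (Dixon's 95% critical value), and chance gives about 1 in 20 groups. Cacna1g was 41.9 CPM in WT replicate 4, with the nearest WT sample at 69.5 CPM. Scn9a was 4.89 CPM in WT replicate 5, against 3.17 CPM in the next. Cacna2d2 was 30.9 CPM in hTau replicate 6, against 24.4 CPM, and Clcn4 was 266 CPM in hTau replicate 2, against 244 CPM. Cacng1 was 0.0196 CPM in hTau replicate 5 and 0 in the other hTau samples. Scn7a was 8.17 CPM in CgA-KO/hTau replicate 2, against 4.25 CPM.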

How the results depend on the processing

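The number of genes called between WT and hTau was 14, and 8 to 15 with each sample left out in turn. It was 22 with voom, 8 with a replicate block, 7 with the striatal score as a covariate, 6 with that score and WT replicate 4 left out, and 7 with near-identical samples summed. Over all genes these 5 fits called 3967, 660, 3586, 2720 and 430, in that order, against 1361 in the main fit. With the Ddx3y level as a covariate 15 of the 47 were called, and 1511 of all genes. Between CgA-KO/hTau and hTau the number was 8, and 4 to 13 with each sample left out. It was 16 with voom, 2 with the replicate block, 0 with near-identical samples summed, 2 without CgA-KO/hTau replicates 1 and 3 and 0 without replicates 1, 2, 3 and 6. Over all genes these last 5 fits called 5229, 654, 159, 718 and 136, in that order, against 2242 in the main fit. With the Ddx3y level as a covariate 8 of the 47 were called, and 2200 of all genes. Between CgA-KO/hTau and WT the number was 7, and 4 to 12 with each sample left out. It was 2 in a fit of those genotypes alone, 15 with voom, 4 with the replicate block, 14 with the striatal score, 16 with that score and WT replicate 4 left out, 4 with near-identical samples summed and 3 without CgA-KO/hTau replicates 1, 2, 3 and 6. Over all genes these last 7 fits called 266, 2458, 614, 4918, 5413, 571 and 482, in that order, against 1489 in the main fit. With the Ddx3y level as a covariate 8 of the 47 were called, and 1767 of all genes. The number of genes tested differed between fits, from 20459 with those genotypes alone to 24511 without the 4 samples. The causes were not tested, beyond the smaller number of samples in several of these fits. With the striatal score the direction turned between WT and hTau for 17 of the 47 genes, among them Cacng4 of the 14 called without it (-0.23, and -0.19 with WT replicate 4 left out). With length not divided out, the share of its family was 41.7% for Hcn2, 20.2% for Cacna1a, 24.4% for Cacnb3, 29.5% for Cacng7 and 37.7% for Scn2b. On that scale Cacna1e held more than Cacna1a, Cacnb4 more than Cacnb3 and Clcn3 more than Clcn4 in each genotype. Cacng2 held more than Cacng7 in WT and hTau but not in CgA-KO/hTau. Of the correlations between same-numbered samples, 1 of 5, 1 of 5 and 0 of 6 passed 0.1 for WT and hTau, WT and CgA-KO/hTau, and hTau and CgA-KO/hTau. The highest was 0.437, for replicate 3 of WT and of CgA-KO/hTau, against up to 0.525 for differently numbered samples of those genotypes. Same-numbered samples did share the Ddx3y level, which was high in replicates 1 to 3 and low in the others. No pairing beyond that was seen, and the block is not a pairing. WT replicate 4, at 8838334 counts, limits what can be seen in genes of a few fragments. It also stood apart in abundant genes. Its robust SD from the other WT samples was 0.453 to 0.505 over 3761 abundant genes, against 0.191 to 0.242 among those samples. It was the lowest WT sample for Cacnb4 (66.0 CPM), Hcn2 (59.3 CPM) and Clcn2 (12.8 CPM), and the highest for Scn1a (351 CPM).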
